A study of Rattus norvegicus with 39 samples.

Results

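Tnfrsf12a and 6 further genes that encode surface or membrane-anchored proteins of injured epithelium (Epha2, Pvr, Pdpn, Emp1, Stom and Tgm1) were examined in laser-captured rat liver. These 7 genes were picked because their signal in bile duct was far higher late after dosing with a bile duct toxicant, except Epha2, which was picked as an early riser. Their probe sets were taken wherever the platform annotation gave one of the 7 symbols alone. This gave 8 probe sets, with a second one for Emp1, out of 12783 probe sets for 10411 genes that carry a single symbol. The 7 were thus selected on their ANIT minus vehicle values in bile duct at 2 and 6 h, and those values are given as a description without a test.

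Sprague Dawley rats aged 8 weeks received a single dose of ANIT (1-napthylisothiocyanate in the spelling of the labels, a compound that injures the cells lining bile ducts) dissolved in corn oil, at 50 mg per kg. Control rats received the corn oil vehicle by itself, 10 ml per kg. At 2 or 6 h after dosing, bile duct epithelium or hepatocytes were cut from liver sections by laser capture, and their amplified RNA was hybridised to Affymetrix rat arrays. The 8 groups combined dose, captured region and time over 39 arrays, with 5 arrays of separate rats per group, except vehicle bile duct at 6 h with 4. Hepatocyte and bile duct arrays may come from the same rats, which the labels do not say.

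Tnfrsf12a encodes Fn14, the small receptor for the cytokine TWEAK (gene Tnfsf12). It signals through TRAF adaptors to NF-kB, and it is known to be switched on in damaged epithelium, including the ductular cells of injured liver. Epha2 encodes a receptor tyrosine kinase that binds ephrin-A ligands on neighbouring cells. Pvr, the poliovirus receptor, and Pdpn, podoplanin, are adhesion proteins: the first binds nectins and lymphocyte receptors such as Cd226 and Tigit, the second binds the platelet receptor Clec1b and is tied to the actin skeleton by ezrin and moesin. Emp1 is a claudin-like membrane protein of the Pmp22 family, Stom (stomatin) is a lipid raft scaffold that modulates ion channels and the glucose transporter Slc2a1, and Tgm1 is the membrane-anchored transglutaminase that cross-links the cornified envelope of keratinocytes.

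The captured regions carried the marker levels of their labels. The 12 cholangiocyte markers averaged 8.87 on vehicle bile duct arrays at 2 h and 4.48 on the hepatocyte arrays of that group, and the 16 hepatocyte markers averaged 5.08 and 10.73 (log2 intensity). Bile duct arrays were uneven in spread and in hepatocyte marker level. The spread of an array is the SD of its log2 values over all probe sets. It ran from 1.68 to 1.88 for vehicle bile duct at 6 h, against 1.95 to 2.06 with ANIT at 6 h. The groups of the 6 h comparison thus did not overlap in spread. At 2 h it ran from 1.99 to 2.18 with vehicle and from 1.76 to 2.11 with ANIT, where replicates 2 and 4 were the low ones. The 3' minus 5' signal of the Gapdh control did overlap at 6 h, from 3.99 to 5.19 with vehicle and from 3.96 to 4.67 with ANIT. What the spread reflects was not tested. Hepatocyte marker levels varied widely within the bile duct groups at 6 h, from 4.53 to 8.73 with vehicle and from 3.75 to 7.75 with ANIT. Fewer cells of a type and less RNA per cell cannot be told apart in such captured samples.

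The early and the late pattern among the genes are shown with the 250 bases before the start site of Epha2, Emp1 and Tnfrsf12a. Epha2 was picked as early, Emp1 was high only at 6 h, and Tnfrsf12a had the largest difference of group means at 6 h among the 7. The sequences are those of RefSeq on GRCr8, on the gene's strand, and a promoter was held there for 6 of the 7 genes. Capitals mark matches, on either strand, to the AP-1 site TGANTCA, the cyclic AMP response half-site TGACGT, the antioxidant response element TGACNNNGC or the TEAD site GGAATG. The E-box CACGTG, the SRF CArG box and the NF-kB site were searched as well, and none of these 3 matched in any of the 6 promoters.
Epha2 (chr5:158888379-158888628, plus strand): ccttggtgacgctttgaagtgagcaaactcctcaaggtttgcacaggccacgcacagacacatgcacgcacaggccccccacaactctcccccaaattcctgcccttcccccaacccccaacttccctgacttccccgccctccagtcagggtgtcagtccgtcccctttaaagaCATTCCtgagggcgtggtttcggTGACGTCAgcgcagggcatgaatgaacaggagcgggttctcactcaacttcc
Emp1 (chr4:169943980-169944229, plus strand): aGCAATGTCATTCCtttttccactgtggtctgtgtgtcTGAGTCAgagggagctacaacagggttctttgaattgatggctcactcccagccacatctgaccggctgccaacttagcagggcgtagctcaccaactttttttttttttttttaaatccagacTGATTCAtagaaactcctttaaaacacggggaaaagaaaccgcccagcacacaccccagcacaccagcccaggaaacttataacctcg
Tnfrsf12a (chr10:13213649-13213898, minus strand): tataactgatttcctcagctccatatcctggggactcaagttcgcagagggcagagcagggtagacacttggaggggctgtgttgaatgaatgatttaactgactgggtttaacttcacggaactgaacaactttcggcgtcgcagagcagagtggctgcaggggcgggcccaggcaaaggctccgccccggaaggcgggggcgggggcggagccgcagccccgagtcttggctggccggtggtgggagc

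Counting back from the start site, with -1 as the last base before it, the Epha2 window held the cyclic AMP half-site on both strands as a palindrome from -52 to -45, and a TEAD site from -75 to -70. The Emp1 window held AP-1 sites from -212 to -206 and from -88 to -82, and an antioxidant element from -249 to -241 that overlapped a TEAD site from -242 to -237. None of the 7 motifs lay in the windows of Tnfrsf12a, Pvr, Pdpn or Tgm1. Among the 33469 RefSeq promoters of the table, cut to the same 250 bases, 6.34% held an AP-1 site, 6.95% the half-site, 10.1% the antioxidant element and 12.1% the TEAD site. The matches describe these letters and not binding.

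In bile duct, the mean signals of 5 of the 7 genes were higher by 1.45 or more in log2 with ANIT than with vehicle already at 2 h. Among these the arrays of the groups stood fully apart for Epha2 alone. The log2 differences of the means at 2 h ran from 1.45 (Stom) to 2.80 (Tgm1) for Tnfrsf12a, Pvr, Stom and Tgm1, beside 2.45 for Epha2, and the ANIT means of these 5 at 6 h lay within -0.27 to 0.43 of those at 2 h. Pdpn and Emp1, by their means, stood clearly above vehicle at 6 h and not at 2 h, where their differences were -0.86 and 0.15.

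Tnfrsf12a on vehicle bile duct arrays at 2 h read 5.85, 6.83, 6.66, 7.72 and 9.48, and with ANIT 10.27, 7.65, 10.89, 10.37 and 10.43 (log2 intensity, replicates 1 to 5). At 6 h it read 7.14, 4.58, 5.07 and 5.85 with vehicle, and 9.60, 9.74, 9.31, 9.82 and 9.79 with ANIT. The ANIT arrays at 6 h were close together and all above the vehicle arrays, whereas at 2 h the array of replicate 2 fell below the highest control. The TWEAK receptor gene was thus 15.9-fold higher at 6 h (log2 change 3.99 ± 0.42, limma SE), the second largest rise of all probe sets in that comparison, and 6.12-fold higher at 2 h (2.61 ± 0.64).

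Epha2, the receptor kinase picked as early, read 5.35, 6.20, 6.40, 6.49 and 7.51 with vehicle at 2 h and 9.79, 7.67, 9.35, 9.02 and 8.39 with ANIT. It was the only one of the 8 probe sets whose 2 h groups did not overlap. At 6 h the vehicle arrays read 8.41, 5.59, 6.16 and 7.25 and the ANIT arrays 8.95, 8.93, 7.91, 8.73 and 9.22, so that vehicle replicate 1 lay above ANIT replicate 3. Epha2 was 5.48-fold higher at 2 h (log2 change 2.45 ± 0.41) and 3.72-fold higher at 6 h (1.90 ± 0.48). Its mean with ANIT was 8.84 ± 0.83 (SD, n = 5) at 2 h and 8.75 ± 0.50 (n = 5) at 6 h.

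Pvr, the adhesion receptor, was the most scattered of the 7 with ANIT at 2 h, where it read 9.03, 4.57, 8.96, 6.63 and 6.44 against 5.64, 3.53, 4.38, 5.11 and 6.47 with vehicle. At 6 h the ANIT arrays read 7.41, 7.16, 6.54, 7.70 and 8.16, and the vehicle arrays 5.89, 2.60, 3.53 and 4.24. The 6 h groups did not overlap, and those at 2 h did. Pvr was 10.0-fold higher at 6 h (log2 change 3.33 ± 0.53) and 4.29-fold higher at 2 h (2.10 ± 0.74).

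Pdpn, podoplanin, was the only one of the 7 with a lower mean with ANIT than with vehicle at 2 h. At 2 h it read 6.31, 4.19, 6.07, 6.86 and 5.94 with vehicle and 4.94, 4.93, 5.83, 4.14 and 5.25 with ANIT, so all 5 ANIT arrays lay below the vehicle mean, at a 1.81-fold lower mean level (log2 change -0.86 ± 0.43). The 2 h groups overlapped, and the 95% interval of this change ran from -1.76 to 0.05. At 6 h it read 4.78, 4.09, 3.61 and 5.16 with vehicle and 6.83, 6.90, 7.79, 7.19 and 6.89 with ANIT. These groups did not overlap, and Pdpn was 6.54-fold higher with ANIT at 6 h (2.71 ± 0.35). Podoplanin also marks lymphatic endothelium. The 4 measured lymphatic markers averaged 4.36 ± 0.10 (range 4.30 to 4.52) with vehicle and 3.88 ± 0.15 (3.75 to 4.07) with ANIT at 6 h. Of these 4 genes 1, Prox1, fell past the threshold. The list is not specific here, since Prox1 and Lyve1 were lower in bile duct than in hepatocytes with vehicle at 2 h. Hepatocyte markers in bile duct at 6 h averaged 6.38 with vehicle and 5.22 with ANIT. Whether lymphatic cells had a part in the Pdpn values was not tested.

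Emp1, the epithelial membrane protein gene, read 5.64, 5.83, 4.46, 4.46 and 4.45 with vehicle and 5.16, 4.33, 5.70, 5.41 and 4.98 with ANIT at 2 h, with full overlap. At 6 h the readings were 3.73, 4.23, 2.88 and 4.06 with vehicle and 7.45, 7.49, 5.63, 6.71 and 7.90 with ANIT, with no overlap. Its log2 change was 0.15 ± 0.34 at 2 h and 3.31 ± 0.44, or 9.92-fold, at 6 h. The second Emp1 probe set was dim, with bile duct group means from 2.42 to 3.19, and gave 0.77 ± 0.33 at 2 h and 0.31 ± 0.35 at 6 h, so the probe sets of this gene disagree.

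Stom, the raft scaffold, read 5.57, 5.73, 5.35, 4.17 and 5.46 with vehicle and 7.85, 5.06, 8.34, 6.30 and 5.99 with ANIT at 2 h. At 6 h it read 4.45, 4.49, 2.78 and 4.76 with vehicle and 7.88, 7.40, 5.88, 6.35 and 8.15 with ANIT. Groups overlapped at 2 h through ANIT replicate 2 and did not at 6 h. Stom was 2.74-fold higher at 2 h (log2 change 1.45 ± 0.52) and 8.07-fold higher at 6 h (3.01 ± 0.50).

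Tgm1, the membrane transglutaminase, read 4.23, 3.19, 3.59, 3.20 and 3.89 with vehicle and 7.77, 3.24, 7.50, 7.31 and 6.28 with ANIT at 2 h. In the 6 h groups it read 4.21, 4.37, 2.76 and 2.47 with vehicle and 7.61, 7.64, 4.29, 6.54 and 8.16 with ANIT. A single ANIT array reached into the vehicle range at each time, replicate 2 at 2 h and replicate 3 at 6 h. Tgm1 was 6.96-fold higher at 2 h (log2 change 2.80 ± 0.65) and 10.5-fold higher at 6 h (3.40 ± 0.66). Markers of squamous epithelium, where this enzyme is best known, stayed near the bottom of the scale: the 4 measured ones averaged 2.71 with ANIT at 2 h and 2.72 at 6 h, against 2.67 and 2.97 with vehicle, and none passed the threshold.

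**Figure D1:**
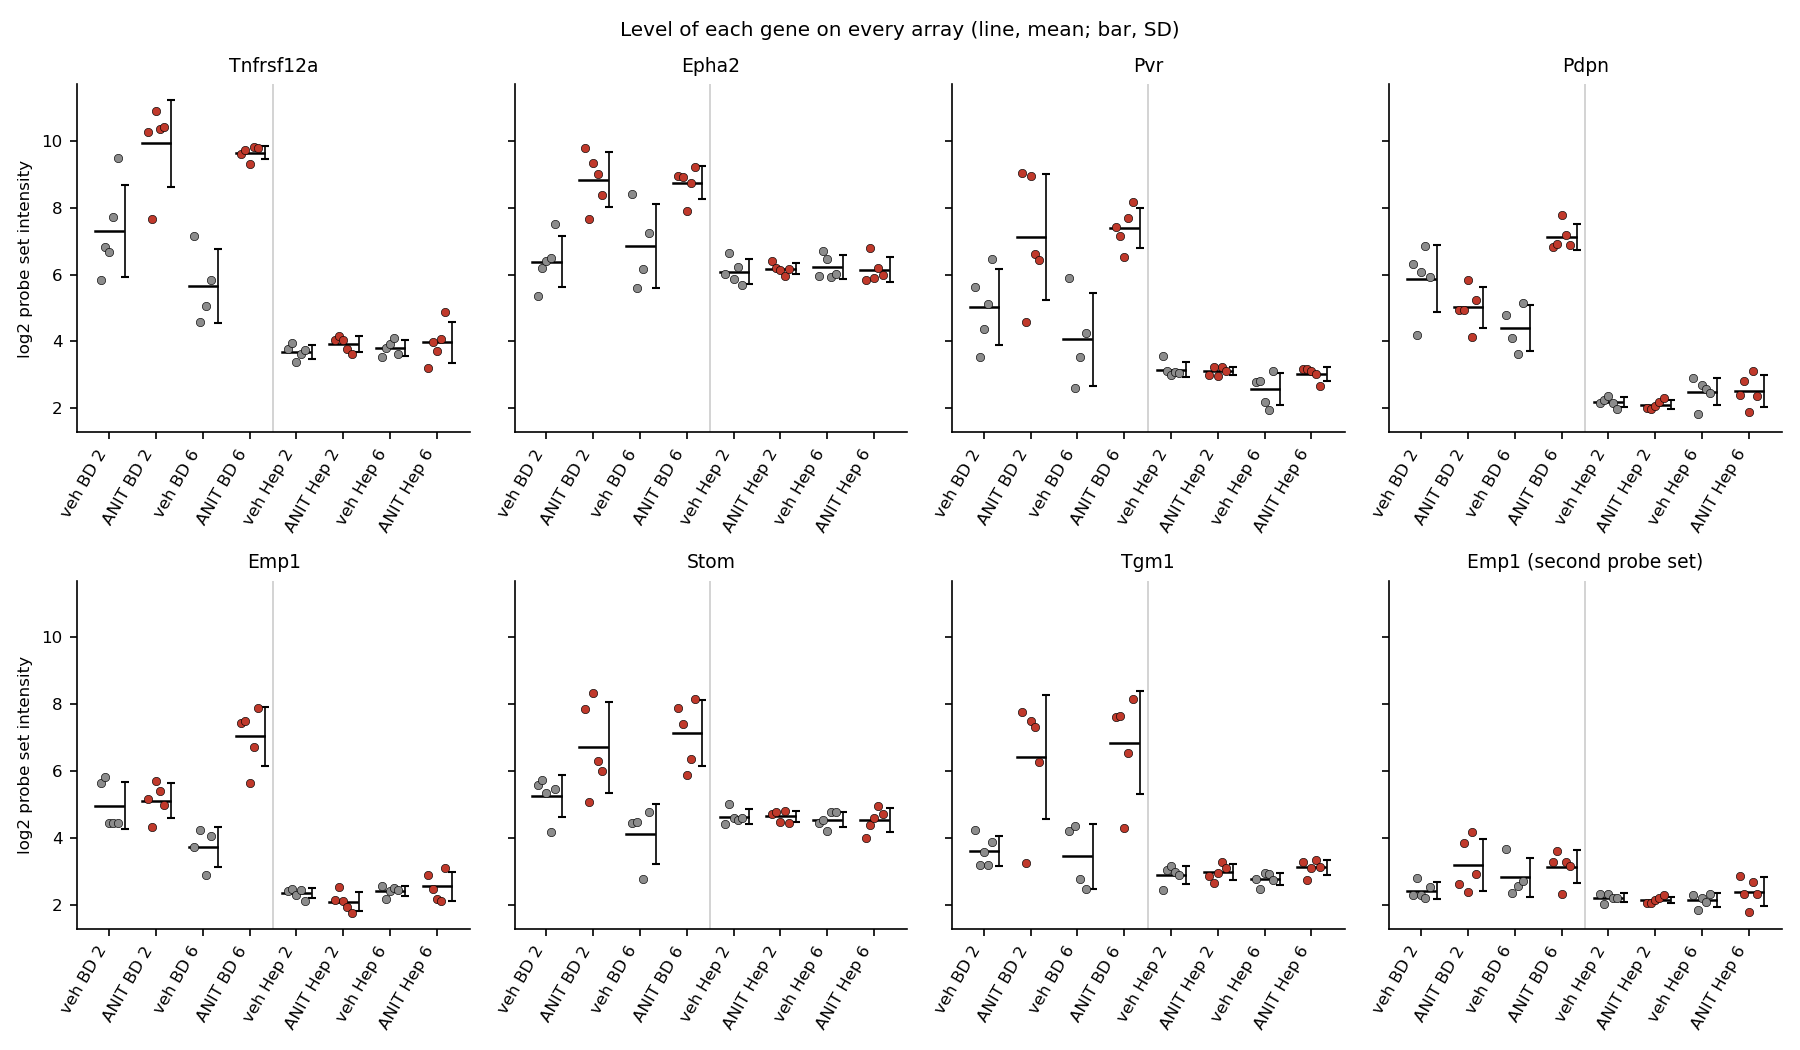
Log2 probe set intensity of the 8 probe sets on each array (points), with group mean (line) and SD (bar); grey is vehicle (veh), red is ANIT, BD is bile duct, Hep is hepatocyte, and 2 and 6 are hours after dosing. Tnfrsf12a on the 5 ANIT bile duct arrays at 6 h lies between 9.31 and 9.82, and hepatocyte group means differ little with dose or time for each gene, with Epha2 the brightest there (6.09 to 6.22).

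In each of Tnfrsf12a, Epha2, Pvr, Emp1, Stom and Tgm1, the lowest ANIT array at 2 h was replicate 2, the array with the lowest spread of that group (1.76) and a 3' actin signal of 7.07, against up to 10.24 on others of the group. Without replicates 2 and 4, an alternative added after the data had been seen, the 2 h changes were 3.22 for Tnfrsf12a, 2.79 for Epha2, 3.12 for Pvr, 2.14 for Stom and 3.56 for Tgm1, while Pdpn stood at -0.53 and Emp1 at 0.31. Replicate 2 was the lowest ANIT array for Tnfrsf12a, Epha2, Pvr, Stom and Tgm1, so leaving it out raises their ANIT means by itself. Nothing is read from the larger changes.

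In bile duct at 6 h, 5 of the 8 probe sets had every ANIT array above every vehicle array, as 8.33% of all 15866 probe sets did, and at 2 h 1 of the 8 (Epha2) did, beside 1.33% of all. These counts describe the values that chose the genes, and nothing is read from them. The median log2 change of the 8 was 3.16 at 6 h and 1.78 at 2 h, beside -0.05 and 0.03 over all probe sets.

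The size of the 6 h changes depended on which controls were used. Choosing genes on the 6 h contrast favours low 6 h vehicle values by itself. The vehicle groups of the 2 times are compared without a test, and their ranges overlapped for each gene but Emp1. Vehicle bile duct at 6 h was lower than vehicle bile duct at 2 h for 6 of the 7 genes, by 1.65 in log2 for Tnfrsf12a, 1.46 for Pdpn, 1.24 for Emp1, 1.14 for Stom, 0.96 for Pvr and 0.17 for Tgm1, and Epha2 was 0.46 higher. Set against the 2 h vehicle arrays instead, the ANIT level at 6 h was 5.08-fold higher for Tnfrsf12a, 5.13-fold for Epha2, 5.16-fold for Pvr, 2.37-fold for Pdpn, 4.19-fold for Emp1, 3.67-fold for Stom and 9.37-fold for Tgm1. The 12 cholangiocyte markers moved with the vehicle values, from a mean of 8.87 (range 8.74 to 9.04) at 2 h to 7.88 (7.53 to 8.22) at 6 h, and the 3' actin signal ran from 9.60 to 10.16 on vehicle bile duct arrays at 2 h and from 6.98 to 8.78 at 6 h. Their part in the difference was not tested. Against the 2 h vehicle arrays the ANIT means of all 7 at 6 h were still higher, in genes chosen with those ANIT arrays. The first place of Tnfrsf12a among them passed to Tgm1. Tnfrsf12a was also not first with array spread as a covariate or in the authors' deposited table, both given below. From 2 h to 6 h with ANIT, Pdpn differed by 2.10 and Emp1 by 1.92, and the other 5 by -0.27 to 0.43.

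**Figure D2:**
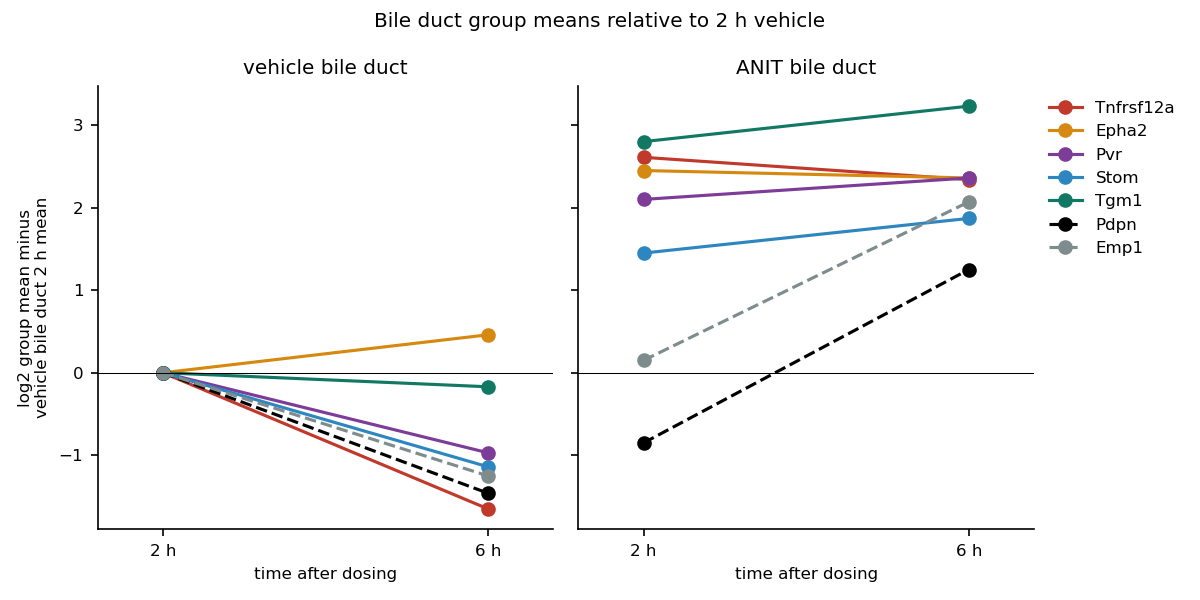
Bile duct group means of the 7 genes at 2 and 6 h after vehicle (left) or ANIT (right), each as the log2 difference from the gene's own mean with vehicle at 2 h. Dashed lines are Pdpn and Emp1, which differ by 2.10 and 1.92 between 2 and 6 h with ANIT, and most genes are lower with vehicle at 6 h than at 2 h.

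The low spread of the 6 h vehicle arrays moved with these values. With array spread as a covariate in a joint fit of the 4 bile duct groups, added after the data had been seen, the 6 h changes were 2.42 for Tnfrsf12a, 0.89 for Epha2, 1.60 for Pvr, 2.06 for Pdpn, 3.49 for Emp1, 2.46 for Stom and 2.83 for Tgm1. With hepatocyte marker level as the covariate they were 4.17, 1.93, 3.42, 2.72, 3.10, 2.63 and 3.24 in that order. All stayed above 0, but the genes were chosen for large values on these arrays, so nothing is read from this. The part of spread in the changes was not tested. The authors' deposited table, made from the same arrays with other software, gave ratios of ANIT over vehicle at 6 h of 4.39 for Tnfrsf12a, 2.16 for Epha2, 7.45 for Pvr, 3.35 for Pdpn, 6.09 for Emp1, 7.02 for Stom and 7.99 for Tgm1. At 2 h the authors' deposited table gave 3.69, 3.49, 5.07, 0.645, 1.53, 3.52 and 7.18 in the same order, so Pdpn lay below 1 there too.

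**Figure D3:**
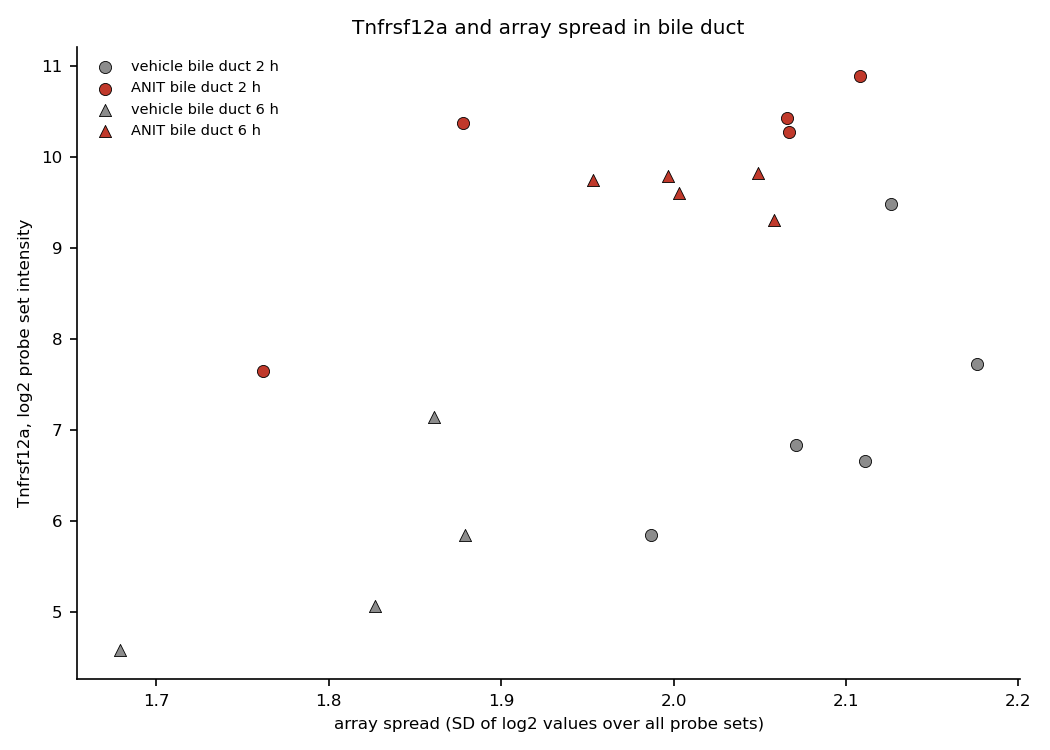
Tnfrsf12a (log2 probe set intensity) against array spread (SD of log2 values over all probe sets) on the 19 bile duct arrays; circles are 2 h, triangles 6 h, grey vehicle and red ANIT. The ANIT array at 7.65 has the lowest spread of its group, and the 6 h vehicle arrays lie at lower spread than the 6 h ANIT arrays.

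Hepatocytes offered a test that the choice of genes had not used. At 2 h, 0 of the 8 probe sets passed an adjusted p of 0.05, with adjusted p from 0.701 to 0.985 (limma, Benjamini-Hochberg over all probe sets) and log2 changes from -0.26 to 0.23, and 0 of the 8 had an unadjusted p under 0.05. At 6 h, 0 of the 8 passed (adjusted p from 0.558 to 0.987, changes from -0.07 to 0.46), and 2 had an unadjusted p under 0.05. With Benjamini-Hochberg adjustment, the authors' deposited table also gave 0 of the 8 at both times. In these comparisons 0.0% of all probe sets passed at either time, and 7.53% at 2 h and 8.1% at 6 h had an unadjusted p under 0.05.

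The hepatocyte values of single genes were as follows. Tnfrsf12a at 6 h read 3.52, 3.81, 3.93, 4.10 and 3.61 with vehicle and 3.20, 3.98, 3.72, 4.07 and 4.88 with ANIT, a change of 0.18 with a 95% interval from -0.33 to 0.68. At 2 h the interval for the TWEAK receptor gene ran from -0.05 to 0.52. For Epha2 the intervals were -0.26 to 0.43 at 2 h and -0.50 to 0.35 at 6 h. Pdpn, which was near the floor of the scale in hepatocytes (group means from 2.11 to 2.52), had intervals from -0.28 to 0.13 and from -0.46 to 0.51. Emp1, as low there (2.09 to 2.55), had intervals from -0.54 to 0.03 and from -0.25 to 0.53, and Stom from -0.24 to 0.27 and from -0.39 to 0.36. Hepatocyte group means of Pvr (2.56 to 3.16) and Tgm1 (2.77 to 3.11) also lay below the median of all probe sets (3.95 to 4.0). Those of Tnfrsf12a (3.69 to 3.97) lay near it. For genes this dim, no change and no signal cannot be told apart.

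The 2 with a small unadjusted p at 6 h were Pvr and Tgm1. Pvr read 2.78, 2.80, 2.19, 1.94 and 3.10 with vehicle and 3.18, 3.17, 3.10, 3.02 and 2.66 with ANIT, a log2 change of 0.46 ± 0.20 (adjusted p = 0.587 in limma). Tgm1 had a mean of 2.77 ± 0.19 (SD, n = 5) with vehicle and 3.11 ± 0.23 (n = 5) with ANIT, a change of 0.35 ± 0.14 (limma, adjusted p = 0.558). Neither passed the threshold. Whether the ANIT effect differed between regions was not tested for the 7 genes, since the bile duct side had chosen them.

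**Figure D4:**
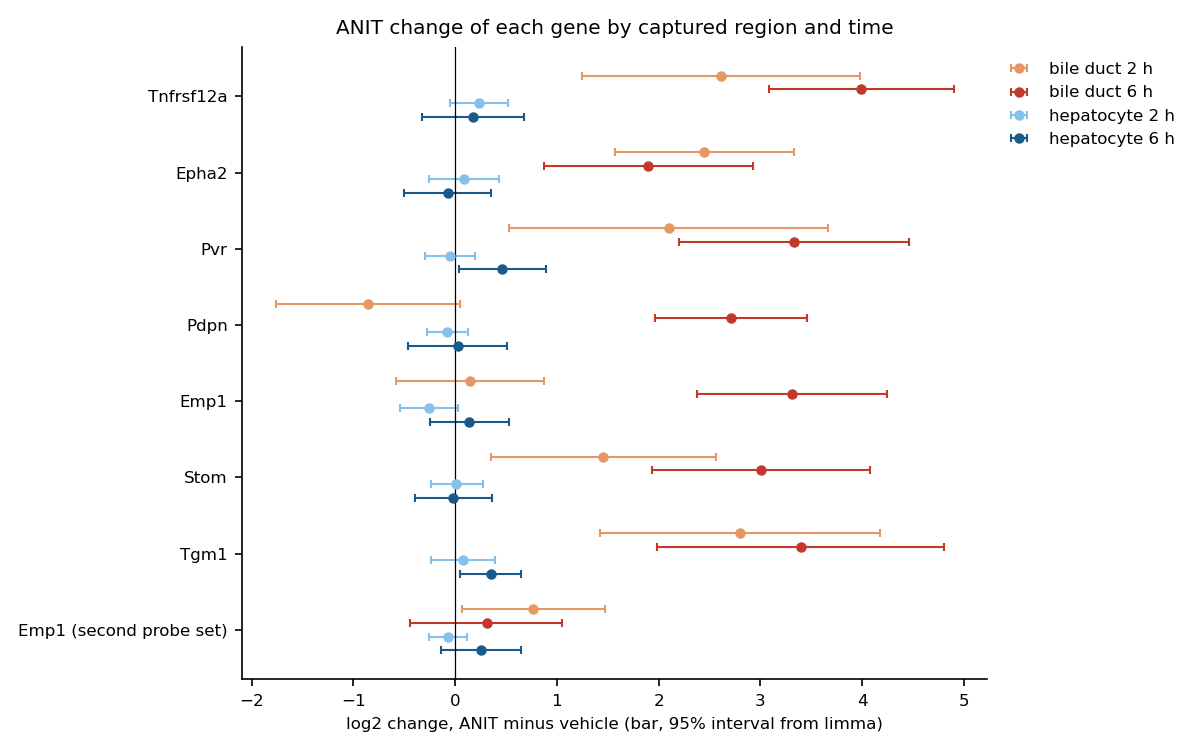
Log2 change (ANIT minus vehicle) of the 8 probe sets in bile duct and hepatocytes at 2 and 6 h, with 95% intervals from limma. The hepatocyte changes lie between -0.26 and 0.46, and Pdpn and Emp1 are the genes with a high 6 h and no high 2 h value in bile duct.

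Without ANIT, the 7 genes had higher mean signals on bile duct than on hepatocyte arrays at 2 h. No test is given, because the 2 h vehicle bile duct arrays were among the values that chose the genes. Of the 8 probe sets, 4 had every bile duct array above every hepatocyte array, as 21.5% of all probe sets did. Pdpn read 2.15, 2.26, 2.36, 2.16 and 1.99 on hepatocyte arrays, below every bile duct array. Its hepatocyte mean was 2.18 ± 0.14 (SD, n = 5) and its bile duct mean 5.87 ± 1.01 (n = 5), a 12.9-fold difference (log2 difference 3.69 ± 0.37, limma SE). Tnfrsf12a read 3.77, 3.96, 3.38, 3.61 and 3.74 in hepatocytes, below every bile duct array, at a 12.3-fold difference (3.62 ± 0.50) that lay within the error of the one for Pdpn.

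Emp1 differed 6.15-fold between bile duct and hepatocytes (log2 difference 2.62 ± 0.27), and its second probe set by 0.20 ± 0.15. Pvr differed 3.65-fold (1.87 ± 0.42), with an overlap of the groups through vehicle hepatocyte replicate 1 at 3.57 and bile duct replicate 2 at 3.53. The differences were smaller for Tgm1 (0.73 ± 0.21) and Stom (0.62 ± 0.26, or 0.90 without vehicle bile duct replicate 4, which read 4.17). For Epha2 the means were 6.39 ± 0.77 (n = 5) for bile duct arrays and 6.09 ± 0.37 (n = 5) for hepatocyte arrays.

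In the vehicle groups at 6 h, likewise given without a test, bile duct minus hepatocyte was 1.87 for Tnfrsf12a, 1.92 for Pdpn, 1.5 for Pvr, 1.32 for Emp1, 0.68 for Tgm1, 0.63 for Epha2 and -0.43 for Stom. Ordered by group mean, the ANIT bile duct groups held the first and second places for Tnfrsf12a (9.92 and 9.65), Epha2, Pvr, Emp1, Stom and Tgm1, and for Pdpn the vehicle 2 h group (5.87) stood between them. Neighbours in these orders overlapped in range, except where the bile duct groups gave way to the hepatocyte groups for Pdpn and where vehicle bile duct at 2 h lay above vehicle bile duct at 6 h for Emp1. Stom was the exception to the regional order, with its lowest mean in vehicle bile duct at 6 h (4.12 ± 0.90, n = 4).

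Ligands, relatives and partners of the 7 genes were followed in 9 lists with 91 measured genes, using for each gene the probe set of highest mean signal. In bile duct at 6 h, 10 of the 91 (11%) rose and 1 (1.1%) fell, where 5.17% and 1.34% of all probe sets did, and the median log2 change was 0.31 against -0.05. At 2 h, 0 rose and 1 fell, where 0.258% and 0.863% of all did, and the median was -0.07 against 0.03. At an unadjusted p under 0.05 there were 29 of the 91 at 6 h and 17 at 2 h, where 23.6% and 16.9% of all probe sets were. The shares are not fully alike, since the lists hold each gene's brightest probe set and the whole holds dim and unnamed ones too. The part of this choice in the list shares was not tested. In hepatocytes 0 of the 91 passed in limma at either time, with medians of 0.02 and 0.04, and 1 at 2 h and 9 at 6 h had an unadjusted p under 0.05.

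In the signalling chain of Tnfrsf12a, 1 of 11 TWEAK pathway genes fell at 2 h, with 4 of the 11 at an unadjusted p under 0.05. At 6 h 0 of the 11 passed in limma (2 at an unadjusted p under 0.05), with a median change of 0.35. The ligand gene Tnfsf12 had -1.21 ± 0.43 (limma adjusted p = 0.101), from 6.00 ± 0.61 (SD, n = 4) to 4.79 ± 0.85 (n = 5), and the NF-kB kinase gene Chuk 1.17 ± 0.37 (adjusted p = 0.0695). At 2 h Birc3, an NF-kB target that encodes an inhibitor of apoptosis bound to TRAF adaptors, fell 4.10-fold, from 6.63 ± 1.10 (n = 5) to 4.59 ± 0.67 (n = 5), with a log2 change of -2.04 ± 0.46 (limma adjusted p = 0.0441). That call was lost in 8 of the 10 fits that left out 1 array (adjusted p from 0.0262 to 0.1). The NF-kB inhibitor gene Nfkbia had -1.34 ± 0.32 (adjusted p = 0.0522). Of 12 other TNF receptor family genes 0 passed at 2 or 6 h, with 1 and 3 at an unadjusted p under 0.05. The death domain receptor Tnfrsf1a had 1.09 (adjusted p = 0.0846) and the decoy receptor Tnfrsf11b -0.99 (adjusted p = 0.133) at 6 h.

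Around Epha2, 1 of 8 ephrins and Eph receptors rose at 6 h. This was Efna1, the gene of an ephrin-A ligand that binds Epha2, with 4.85 ± 0.16 (n = 4) on vehicle and 6.45 ± 0.72 (n = 5) on ANIT arrays, 3.05-fold (log2 change 1.61 ± 0.36, limma adjusted p = 0.0159). A dimmer probe set of Efna1 went the other way at 6 h, with -0.81 ± 0.40 (adjusted p = 0.233). Against the 2 h vehicle arrays the Efna1 change was 0.37 (adjusted p = 0.471), and at 2 h it was -0.33 (adjusted p = 0.676).

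Around Pvr, 2 of 5 nectin-related genes rose at 6 h, namely Nectin2, a nectin that shares lymphocyte receptors with Pvr (2.26-fold, 1.18 ± 0.33, limma adjusted p = 0.0438), and Cadm1, a nectin-like adhesion gene (2.36-fold, 1.24 ± 0.29, adjusted p = 0.0227). The Nectin2 call was lost in 7 of the 9 fits that left out 1 array (adjusted p from 0.0299 to 0.115), after quantile normalization (adjusted p = 0.212) and in the authors' deposited table (adjusted p = 0.17). Its further probe sets disagreed, with 2.40 ± 0.47 (adjusted p = 0.00942) for one and -0.48 ± 0.33 (adjusted p = 0.406) for the other. The probe sets of Nectin4 disagreed, with -0.23 for the one in the list and 1.97 ± 0.48 (adjusted p = 0.0251) for the other.

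Around Pdpn, Ezr, the ezrin that ties podoplanin to actin, was the 1 of 8 partner genes that rose at 6 h (2.80-fold, 1.48 ± 0.34, limma adjusted p = 0.0193). Moesin, Msn, had 0.94 ± 0.28 (adjusted p = 0.0544). Ezr was 0.35 (adjusted p = 0.284) against the 2 h vehicle arrays and 0.08 (adjusted p = 0.954) with array spread as a covariate. Cd44, a hyaluronan receptor that binds podoplanin, depended on the probe set: the one in the list had 0.53 ± 0.69 (adjusted p = 0.686), and the other went from 3.75 ± 0.78 (n = 4) to 6.45 ± 1.25 (n = 5), 6.48-fold (2.70 ± 0.55, adjusted p = 0.0116).

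By its listed probe set, no relative of Emp1 or Stom passed in bile duct at either time, and in each of the lists 1 gene at 2 h and 1 at 6 h had an unadjusted p under 0.05. Among 7 genes of the EMP and PMP22 family, Emp2 had -0.29, Emp3 0.33 and Pmp22 0.38 at 6 h, with adjusted p from 0.573 to 0.670, and Cldn1 had -0.91 (adjusted p = 0.188). Among 8 stomatin relatives and partners, the glucose transporter Slc2a1 had 0.55 (adjusted p = 0.304) and the membrane protrusion gene Prom1 -0.90 (adjusted p = 0.129). The caveolin gene Cav1 had 0.25 with its listed probe set, and -1.73 ± 0.37 (adjusted p = 0.0146) with another.

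The transglutaminases parted. Tgm2, the tissue transglutaminase, fell 3.45-fold at 6 h while Tgm1 was high: it had 9.18 ± 0.35 (n = 4) with vehicle and 7.39 ± 0.70 (n = 5) with ANIT (log2 change -1.79 ± 0.36, limma adjusted p = 0.0111). Its fall passed the threshold in each of the 12 alternatives and 9 single-array omissions run (adjusted p from 5.14e-06 to 0.0463), and another Tgm2 probe set gave -1.30 ± 0.28 (adjusted p = 0.0127). At 2 h Tgm2 had -0.87 ± 0.28 (adjusted p = 0.132). Of the 12 genes in the transglutaminase and cornified envelope list, Dsp (desmoplakin, a desmosome plaque protein) rose 2.51-fold (adjusted p = 0.0394) and S100a10, an annexin partner, rose 2.56-fold (adjusted p = 0.0236). Neither held against the 2 h vehicle arrays, where Dsp was -0.18 (adjusted p = 0.695) and S100a10 0.41 (adjusted p = 0.204).

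Of 21 other surface genes of injured epithelium, 4 rose at 6 h. They were Slc3a2, the heavy chain of an amino acid transporter (3.98-fold, 1.99 ± 0.37, limma adjusted p = 0.00746), Sdc1, a heparan sulfate proteoglycan (5.21-fold, 2.38 ± 0.52, adjusted p = 0.0154), and the integrin genes Itga3 (4.4-fold, 2.14 ± 0.48, adjusted p = 0.0163) and Itgb1 (3.05-fold, 1.61 ± 0.32, adjusted p = 0.0101). At 2 h Sdc1 had 1.24 ± 0.31 (adjusted p = 0.0617) and Slc3a2 1.32 ± 0.39 (adjusted p = 0.104). Itgb1 was 0.15 (adjusted p = 0.712) against the 2 h vehicle arrays.

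The 11 list calls at 6 h moved with array spread and with the choice of controls. The 6 h values of the 7 genes moved unevenly. Tnfrsf12a went from 3.99 to 2.42 with array spread and to 2.34 against the 2 h vehicle arrays. In the same order Tgm1 went from 3.40 to 2.83 and 3.23, and Emp1 from 3.31 to 3.49 and 2.07. With array spread as a covariate 1 of the 11, Tgm2, was still past the threshold, and against 2 h vehicle arrays 6 were. The 6 h groups did not overlap in spread, so the covariate is hard to separate from ANIT there, and a call can be lost without a smaller change. Efna1 lost its call at 1.87, against 1.61 without the covariate, whereas the other lost calls came with smaller changes. Leaving out 1 array kept 6 to 11 of the 11 calls, with the fewest without ANIT replicate 5. In these 9 fits the calls of Efna1, Tgm2, Slc3a2, Sdc1, Itga3 and Itgb1 held in all 9, those of Cadm1 and Ezr in 6, that of S100a10 in 4, and those of Nectin2 and Dsp in 2. The authors' deposited table kept 5 of the 11. The part of spread was not tested.

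**Figure D5:**
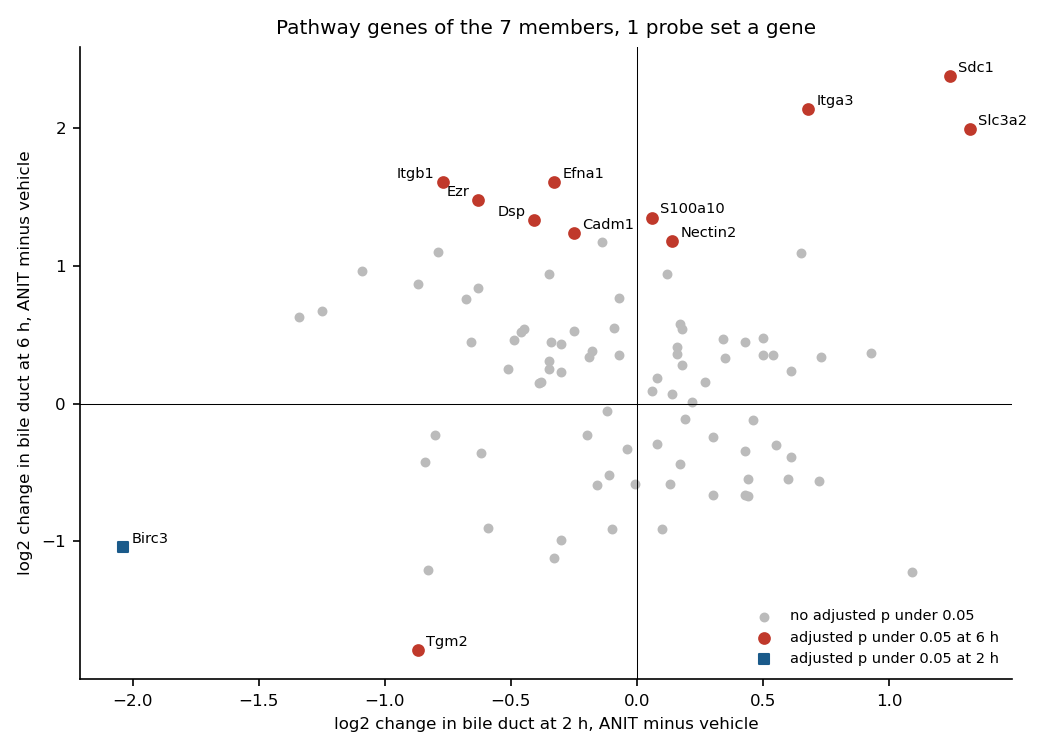
Log2 change of the 91 list genes in bile duct at 2 h (horizontal) and 6 h (vertical), ANIT minus vehicle, 1 probe set a gene; coloured points have an adjusted p under 0.05. The 10 genes that rose at 6 h stand at the top, Tgm2 at -1.79 at the bottom, and Birc3 at -2.04 to the left.

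The genes with group means most like those of the 7 were found by the root mean square difference over the 8 groups, after centring each probe set, and are given as a description. Nearest to Tnfrsf12a were Prss22, an epithelial serine protease (0.40), the tight junction gene Cldn4 (0.61), the glutathione transferase gene Gstp1 (0.62), the G protein regulator gene Rgs2 (0.66), the matrix gene Ccn2 (0.74), Pvr (0.76), and the microtubule genes Mtcl1 (0.79) and Map2 (0.83). Prss22 had 5.36 with vehicle and 7.92 with ANIT at 2 h, 4.81 and 7.42 at 6 h, and 2.04 to 2.33 in hepatocytes. Cldn4 and Gstp1 differed less at 2 h (0.95 and 1.09) than at 6 h (2.97 and 2.90).

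Nearest to Epha2 were the lipoprotein receptor gene Lrp8 (0.23) and a probe set of Plaur, the urokinase receptor gene (0.23). Plaur at that probe set had 2.68 ± 0.70 at 2 h (limma adjusted p = 0.0729) and 1.59 ± 0.53 at 6 h (adjusted p = 0.0845), while its listed probe set had 0.44 and -0.55. Tgm1 lay nearest to the stress factor gene Atf3 (0.22), and both Tgm1 and Pvr lay close to Hbegf, which encodes an EGF receptor ligand (0.39 and 0.44). Myc, a growth-driving transcription factor gene, was as close to Pvr (0.44), and Stom lay nearest to the ribonucleoprotein gene Gar1 (0.27) and the focal adhesion gene Zyx (0.32).

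The late pair had other neighbours. Pdpn lay nearest to the 6.48-fold probe set of its partner Cd44 (0.26) and to Ly6g6c (0.26), and Emp1 to the RNA-binding protein gene Mex3a (0.29) and the claudin gene Cldn7 (0.32). These 4 had changes from -0.24 to 0.32 at 2 h and from 2.08 to 2.87 at 6 h. Among the 7 genes themselves, taking the main Emp1 probe set, the closest pair was Pdpn with Emp1 (0.37), followed by Epha2 with Stom (0.46) and Pvr with Tgm1 (0.48), and the farthest was Tnfrsf12a with Stom (1.60).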

How the data were processed

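RNA of laser-captured bile duct or hepatocytes was measured on 39 Affymetrix arrays in 8 groups. The values used are log2 probe set intensities as deposited, made by the authors with RMA per the submitters' processing notes. The version of RMA is not given in the sources used here, nor whether it was run over all arrays at once. The authors' deposited tables give log10 ratios of ANIT over vehicle and a p-value per probe set, with no adjustment stated. Precision is limited by the number of arrays, since intensities carry no counts. The lowest value was 0.9 and the highest 13.46, with array means between 4.41 and 4.54.

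After removal of 57 control probe sets, 15866 entered the tests. The supplied annotation named 12783 by 1 symbol and 312 by several, and 2771 were not named. Each comparison was fitted on its own arrays with limma 3.58.1 in R 4.3.3 (lmFit, eBayes, two-sided, no covariates), and adjusted p is Benjamini-Hochberg over all probe sets, threshold 0.05. Errors are limma standard errors for changes and SD for group means. The fits were tested on simulated data. A planned test of the 7 genes between regions on 2 h vehicle arrays is not reported, since those arrays helped to choose the genes. The members, lists, tests and alternatives were chosen with earlier results of these data known. List genes were named by smallest p past the threshold, up to 4 per direction and list and 2 where none passed. Ligands, receptors and family members were named in any case. Nearest genes were the 8 closest for Tnfrsf12a and the 2 closest for the others. Genes of further probe sets were named after their values were seen. Marker lists (10) gave mean levels of cell types. Replicate numbers were not used to pair arrays: correlations of same-numbered arrays ran from -0.199 to 0.348, and in no comparison was every one over 0.1. The same-numbered array was the closest match in 3 of 5 cases for ANIT against vehicle hepatocytes at 2 h. It was so in 3 of 5 for vehicle bile duct against hepatocyte at 2 h, and in 0 or 1 in each other comparison. Pairing is thus not excluded. Alternatives changed normalization, filter, variance model, array weights, arrays in the fit, block, controls and covariates, or left out each array.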

Additional observations from a re-analysis of the deposited data

Results flagged for a closer look

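Tnfrsf12a on ANIT bile duct replicate 2 at 2 h read 7.65, apart from the other arrays of its group, whose lowest was 10.27. The array also had the lowest spread and 3' actin signal of the group. Without it and replicate 4 the Tnfrsf12a change at 2 h was 3.22, against 2.61 with them. Leaving out the lowest array raises the mean by itself, so nothing is read from this.

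Stom on vehicle bile duct replicate 4 at 2 h read 4.17, with the next array at 5.35, and on vehicle bile duct replicate 3 at 6 h it read 2.78, with the next at 4.45. Pvr on vehicle hepatocyte replicate 1 at 2 h read 3.57, above the next array at 3.10. Chance sets apart about 1 in 20 groups, and 64 groups of a probe set and its arrays were looked at.

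Pdpn in bile duct had a lower mean with ANIT than with vehicle at 2 h and a higher one at 6 h. All 5 ANIT arrays lay below the vehicle mean at 2 h (log2 change -0.86) and all 5 above it at 6 h (2.71). At 2 h the groups overlapped, and the 95% interval of the change ran from -1.76 to 0.05. The difference between the 2 times was not tested, because both comparisons had served to choose the genes.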

How the results depend on the processing

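The calls of the 8 probe sets in hepatocytes (0 past the threshold at either time) held in every alternative and single-array omission run. No bile duct change of the 7 genes changed sign at 6 h, but they were chosen for large 6 h values, so nothing is read from this. Counts over all probe sets moved most. In bile duct at 6 h the 1033 calls became 609 after quantile normalization, 4564 in a fit over all arrays, 618 from the authors' deposited table, 1697 with the 4 bile duct groups, 1571 with hepatocyte marker level and 162 with array spread as covariate, and 2247 against 2 h vehicle arrays. The share of calls that were higher was 79.4%, 38.3% with the spread covariate, 41.9% against 2 h vehicle arrays, 66.0% after quantile normalization and 56.2% over all arrays. Leaving out 1 array gave 552 to 1137. The replicate block gave 400 calls at 6 h (5 in the lists), 99 at 2 h (0 in the lists) and 17 in hepatocytes at 6 h. Correlations did not settle whether replicate numbers pair arrays, and the cause of the shift with the block was not tested. The 11 list calls at 6 h became 7 after quantile normalization and in the authors' deposited table, 29 over all arrays and 1 with array spread (7 to 14 without 1 array). Dsp turned to -0.18 against 2 h vehicle arrays.

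In bile duct at 2 h the 178 calls became 471 with array weights and 1634 over all arrays (12 to 308 without 1 array). The single list call at 2 h became 3 without dim probe sets, 5 with array weights, 9 over all arrays, 4 in the authors' deposited table, 0 with the 4 bile duct groups, 2 with either covariate and 2 without the low-spread arrays (0 to 3 without 1 array). The 0 hepatocyte calls at 2 h became 2 in the authors' deposited table (0 to 1 without 1 array). Those at 6 h became 3 without dim probe sets, 14 with a trended robust variance, 4 with array weights, 5 over all arrays and 3 in the authors' deposited table (0 to 3 without 1 array). The share of the 2 h calls that were higher was 23.0%, but 66.0% with array spread as covariate and 54.5% without the 2 low-spread ANIT arrays, 37.4% after quantile normalization, 37.8% in the authors' deposited table, 35.1% over all arrays, and 0.0% to 42.7% without 1 array. The causes of these shifts were not tested.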
